A study of Mus musculus with 4 samples.

Results

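Genes of the core transcription machinery were examined in Ter119+ cells of the mouse bone marrow: 17 genes of the Mediator head, middle and scaffold, 12 genes of RNA polymerase II (Pol II) and 10 genes of the general transcription factors. These 39 genes were chosen by symbol, whatever their counts, from the 56691 genes in the tables, and all 39 passed the filter on low counts that left 13052 genes for testing. Poly(A) RNA was sequenced from 2 libraries labelled Med16 fl/fl (floxed alleles of the Mediator tail subunit gene Med16) and 2 labelled Med16 KO. The titles of the KO samples carry the letters DK instead, which the sources used here do not explain, and the groups follow the genotype label. The cells were sorted for Ter119, an antigen of the erythroid lineage, and every library carries 3 weeks as its time. The sources used here do not give the Cre driver, the exons deleted, whether the time is an age or an interval, or whether each library is a separate animal. The p-values therefore set the genotype difference only against the spread between these libraries, partly pooled over genes. That spread may be technical. The comparison asks whether loss of one Mediator subunit is accompanied by changes in the transcripts of the rest of the initiation machinery.

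Mediator carries signals from DNA-bound transcription factors to Pol II. Its head and middle modules contact the polymerase, Med14 runs through the complex as a scaffold, and the tail, to which Med16 belongs, receives activators. Pol II opens promoters together with general factors: TBP and TFIIB place the polymerase, TFIIA steadies TBP, TFIIF travels with the polymerase, TFIIE recruits TFIIH, and TFIIH unwinds DNA. Transcription falls widely as erythroid nuclei condense, so the supply of this machinery is of interest in these cells.

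The libraries held 6749196 to 7216333 counts assigned to genes, of which 8786 to 9449 fell on the 39 members. Members took 0.131% of assigned counts in both fl/fl libraries and 0.130% in both KO libraries. Med16 itself was at 23.2 and 18.4 CPM (counts scaled to library size with TMM factors) in fl/fl and at 2.25 and 4.41 CPM in KO, with a log2 fold change of -2.64 (SE 0.35, adjusted p = 4.6e-05), so all 4 libraries followed their labels. All 10 erythroid markers were present (3 called higher in KO and 6 lower), at a summed 192707 to 192715 CPM in fl/fl and 184435 to 195467 CPM in KO. Markers of other cells were present too. Of 13 neutrophil markers 12 were called higher in KO (summed 14159 to 14326 CPM in fl/fl and 20042 to 20431 CPM in KO). Of 10 megakaryocyte and platelet markers 8 were called higher (96.4 to 109 CPM in fl/fl and 231 to 236 CPM in KO). Gp1bb was at 0 in every library, but 91.1% of its exon bases overlap Sept5 on the same strand. Whether that 0 came from the counting of shared bases was not tested. Of 10 monocyte and macrophage markers 4 were called higher and 1 lower (2210 to 2282 and 3103 to 3136 CPM). Of 7 endothelial and stromal markers 5 were tested and 3 called higher (269 to 273 and 442 to 481 CPM). Among 10 B cell markers 1 was called higher and none lower (255 to 273 and 245 to 250 CPM). Of these 10, however, 8 had a log2 fold change below 0, and the median was -0.34. Of 9 T and NK cell markers 6 were tested and none was called (42.5 to 44.7 and 52.9 to 56.9 CPM). The machinery genes are used by all of these cells, and the part of the other cells in the results below was not tested. In sorted bulk RNA, fewer cells of a type and less RNA per cell cannot be told apart.

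Promoters of 3 of the 4 members that passed the test are shown first, because the proteins of this set act at promoters of this kind. Of the 39 members, 33 matched the RefSeq promoter table (GRCm38.p6), which gives 250 bases before to 50 after the start. Gtf2e2, Med8, Polr2d, Polr2g, Polr2k and Ercc3 were not matched. Printed below on the gene's strand are Med7 (chr11:46436697-46436996, plus strand), Med19 (chr2:84678152-84678451, plus strand) and Polr2e (chr10:80039610-80039909, minus strand). Capitals mark exact matches, on either strand, to the TATA box TATAAA, the GC box GGGCGG, the CCAAT box CCAAT, the ETS core CCGGAAG and the GATA core GATAA, none of which overlap here.
Med7: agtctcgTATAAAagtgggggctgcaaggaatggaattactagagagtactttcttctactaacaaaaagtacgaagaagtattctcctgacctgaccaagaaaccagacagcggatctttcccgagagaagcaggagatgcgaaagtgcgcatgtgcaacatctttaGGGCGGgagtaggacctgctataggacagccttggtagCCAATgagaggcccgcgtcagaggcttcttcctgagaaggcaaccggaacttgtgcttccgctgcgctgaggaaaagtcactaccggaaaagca
Med19: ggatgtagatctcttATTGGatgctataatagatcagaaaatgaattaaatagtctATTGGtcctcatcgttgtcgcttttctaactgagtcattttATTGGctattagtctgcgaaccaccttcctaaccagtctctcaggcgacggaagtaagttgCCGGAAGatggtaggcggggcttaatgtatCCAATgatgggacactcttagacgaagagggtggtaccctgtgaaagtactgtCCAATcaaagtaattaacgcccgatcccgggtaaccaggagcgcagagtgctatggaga
Polr2e: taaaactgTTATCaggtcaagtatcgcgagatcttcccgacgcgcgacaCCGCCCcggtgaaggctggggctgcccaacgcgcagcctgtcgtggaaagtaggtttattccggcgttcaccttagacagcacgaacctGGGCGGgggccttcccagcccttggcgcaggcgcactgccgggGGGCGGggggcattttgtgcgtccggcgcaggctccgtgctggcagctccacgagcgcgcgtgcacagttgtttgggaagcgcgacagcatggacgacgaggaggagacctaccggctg
The Med7 window holds 1 TATA box near its upstream end, 1 GC box and 1 CCAAT box. The Med19 window holds 5 CCAAT boxes and 1 ETS core, and that of Polr2e 3 GC boxes and 1 GATA core, so the 3 windows have little in common. Polr2e has 65% GC and 32 CpG dinucleotides, against 50% and 13 for Med7 and 45% and 12 for Med19. Over the 33 members the GC box was found in 63.6% of windows against 35.9% of all 27025 promoters, one per gene. The ETS core was found in 36.4% against 9.12%, the TATA box in 15.2% against 14.2%, the CCAAT box in 36.4% against 37.9%, and the GATA core in 9.09% against 25.8%. The members' windows also had a higher median GC content (58.7% against 52.7%) and more CpG dinucleotides (median 23 against 7). The promoters compared with are those of all genes, not only the genes tested here. These matches describe the letters only.

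Most of the core machinery showed no change that passed the test. Of 39 members, 1 was called higher in Med16 KO and 3 lower: Polr2e rose, and Med7, Med19 and Gtf2e2 fell (adjusted p under 0.05 by edgeR's quasi-likelihood test). That is 10.3% of the members, while 18.4% of all genes tested were called, 8.5% higher and 9.89% lower. Among the 9319 genes whose mean CPM lay inside the members' range of 5.55 to 283 CPM, 20.3% were called. The members' median log2 fold change was -0.04 and that of all genes 0.02, and the median size regardless of sign was 0.27 against 0.32. At an unadjusted p under 0.05 there were 8 of 39 members, 1 higher and 7 lower, beside 3965 of all 13052 genes, 1947 higher and 2018 lower. The count of called members fell when either fl/fl library was left out and rose when either KO library was. The count over all genes moved the same way in these fits, which leave a single library in a genotype. The shift is therefore not particular to the members. With an offset for GC content 2 members were called, beside 14.3% of all genes. With an assumed biological coefficient of variation of 0.2 there were 0, beside 4.75% of all genes.

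**Figure D1:**
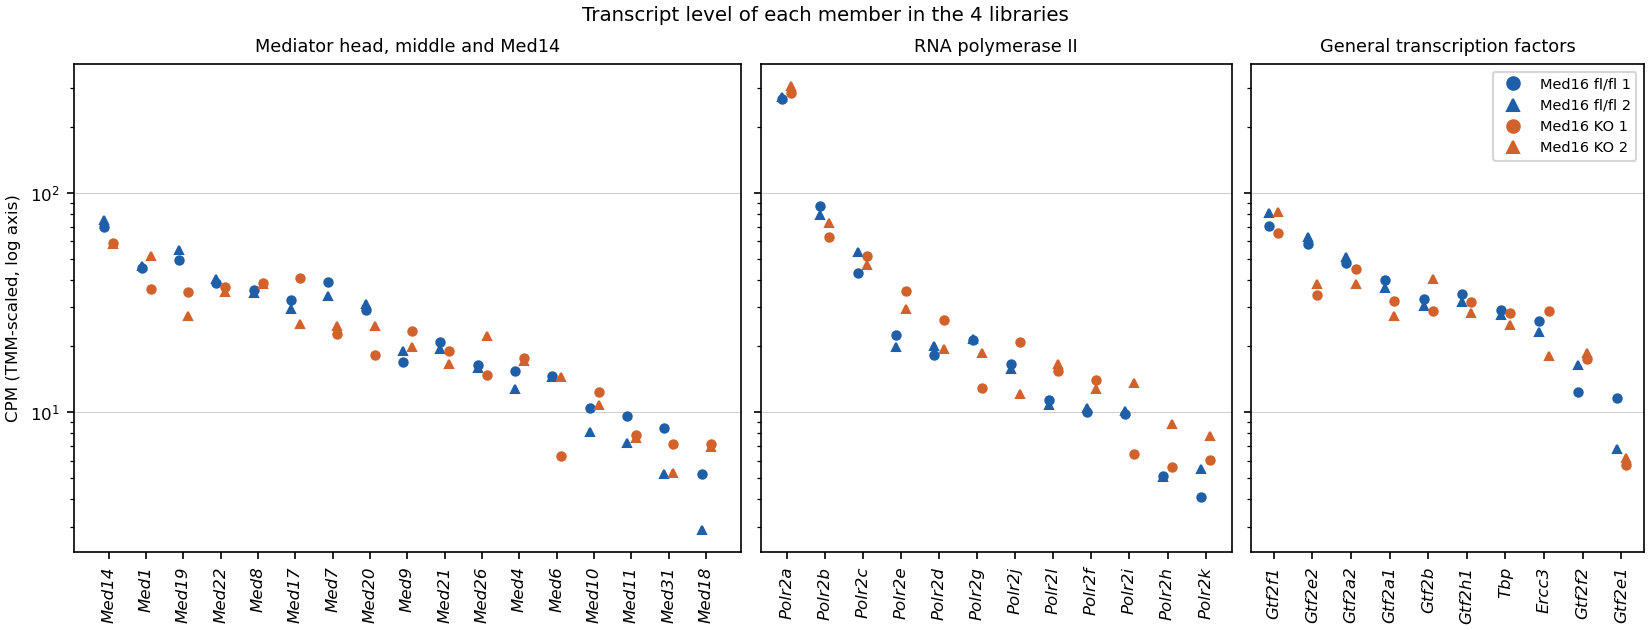
CPM of each of the 39 members (log axis) in the 2 fl/fl libraries (blue) and the 2 KO libraries (orange), circles for library 1 and triangles for library 2, ordered by mean level within each complex. Levels ran from 5.55 CPM for Med18 to 283 CPM for Polr2a, and the genotypes lie close together for most genes.

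A p that misses the threshold does not show that a gene stayed level, so the intervals matter. Of the 35 members not called, 29 had a 95% interval of the fold change inside 2-fold in both directions, and 14 inside 1.5-fold. The other 6, whose intervals reached 2-fold, were Med6, Med18, Polr2h, Polr2k, Polr2l and Gtf2e1, all with a low count. Libraries of the 2 genotypes did not overlap for 12 members with KO above and 13 with KO below. Over all genes tested, 29.4% had KO above and 28.2% had KO below without overlap, so 64.1% of members against 57.6% of all genes is near the background.

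**Figure D2:**
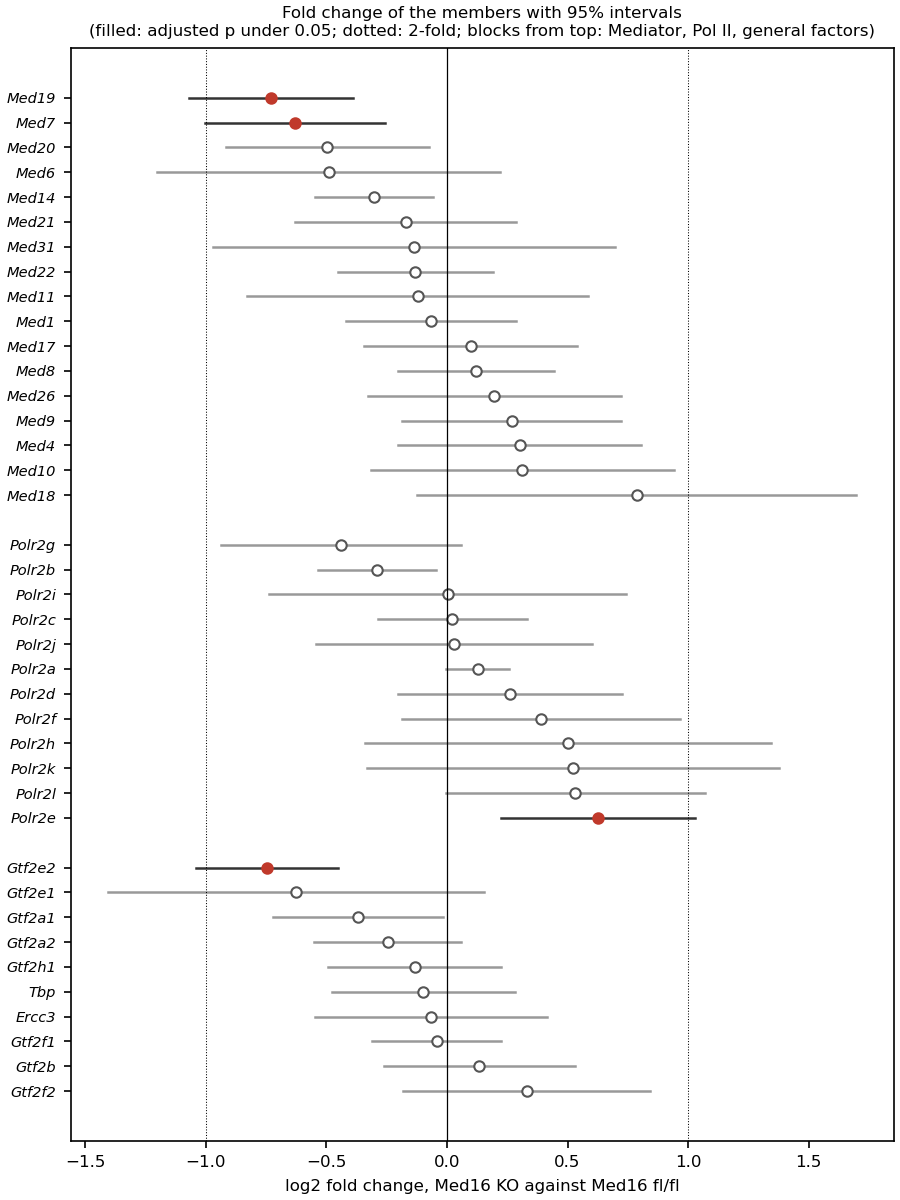
Log2 fold change of each member, Med16 KO against Med16 fl/fl, with its 95% interval, in blocks for Mediator, Pol II and the general factors. Filled points passed the test (Med19, Med7, Polr2e and Gtf2e2), and dotted lines mark a 2-fold change in either direction.

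By complex, 2 of 17 Mediator members were called, both lower, with a median log2 fold change of -0.12. Of 12 Pol II members 1 was called, higher, with a median of 0.19. Of 10 general factor members 1 was called, lower, with a median of -0.12. These counts are 11.8%, 8.33% and 10% of the 3 groups, against 18.4% of all genes tested. Log2 fold changes lay above 0 for 10 of 12 Pol II members, 7 of 17 Mediator members and 2 of 10 general factor members. Over all genes tested, 6721 of 13052 lay above 0. Among the Pol II members above 0, Polr2c, Polr2i and Polr2j were at only 0.02, 0.00 and 0.03. Most of these signs belong to genes that were not called, and no test between the complexes was made. With library size as the only scaling the medians were -0.07, 0.25 and -0.06, and that of all genes was 0.07. The Mediator median was 0.08 when fl/fl library 1 was left out, so its sign rests on that library.

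In the Mediator head, none of the 7 genes was called, and 1 had an unadjusted p under 0.05 by the same test. Med20, a partner of Med18 in the movable part of the head, was at 29.3 and 31.0 CPM in fl/fl and at 18.3 and 24.6 CPM in KO. Both KO libraries lay below both fl/fl libraries, with a log2 fold change of -0.50 (95% interval -0.92 to -0.08, adjusted p = 0.0988). Without KO library 2, the higher of the pair, its log2 fold change was -0.74, in a fit with no spread within KO. Med18 was at 5.24 and 2.90 CPM in fl/fl and at 7.16 and 6.91 CPM in KO, from 20 to 51 counts per library. Its log2 fold change of 0.79 was the highest among the members, with an interval of -0.13 to 1.70 that includes 0. Med6, which links head and middle, was at 14.6 and 14.5 CPM in fl/fl but at 6.32 and 14.4 CPM in KO. KO library 1 alone was low. The log2 fold change of Med6 was -1.21 without KO library 2, against -0.49 (adjusted p = 0.356) with all libraries.

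The other head genes stayed closer to 0. Med8, which tethers Med18 and Med20 to the head, had the highest level per length of all Mediator members, 31.2 CPM per kb in fl/fl and 34.0 in KO. It was at 36.1 and 35.1 CPM in fl/fl and 38.9 and 38.5 CPM in KO (log2 fold change 0.12, interval -0.20 to 0.45). Med17, the central head subunit, was at 32.3 and 29.6 CPM against 40.9 and 25.3 CPM, so the KO libraries enclosed the fl/fl range. Med22 and Med11, which pair in the head, had log2 fold changes of -0.13 and -0.12.

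In the Mediator middle, 2 of 9 genes were called lower, beside 9.89% of all genes tested. Med7, the hinge partner of Med21, was at 39.2 and 33.8 CPM in fl/fl and at 22.6 and 24.6 CPM in KO. Every KO library lay below every fl/fl library, and the means were 36.5 ± 3.84 and 23.6 ± 1.38 CPM (mean ± SD, n = 2 per genotype). The log2 fold change was -0.63 (SE 0.18, adjusted p = 0.0201). Med19, which sits at the hook of the middle module near the polymerase, was at 49.3 and 54.8 CPM in fl/fl and at 35.1 and 27.5 CPM in KO. Means were 52.0 ± 3.92 and 31.3 ± 5.37 CPM, and the log2 fold change was -0.73 (SE 0.16, adjusted p = 0.00428). The drop left Med19 at 15.2 CPM per kb in KO, against 25.3 in fl/fl, where among Mediator members only Med8 and Med21 were higher per length.

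Both calls have limits. The call of Med7 ended with the GC offset (-0.44, adjusted p = 0.118), without fl/fl library 1 (-0.53, adjusted p = 0.32) and without fl/fl library 2 (-0.74, adjusted p = 0.0785), and that of Med19 without fl/fl library 2 (-0.66, adjusted p = 0.0783). With the strand setting unknown, opposite-strand neighbours may bear on both genes. Of Med7's exon bases 21.2% overlap 2310031A07Rik, which was not found among the genes counted and so has no values here. Of Med19's exon bases 11.9% overlap Zdhhc5, which itself fell from 150 and 154 CPM to 120 and 112 CPM (log2 fold change -0.39, adjusted p = 0.00389).

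The hinge and hook partners of these genes were not called. Med21 was at 20.8 and 19.3 CPM in fl/fl and 19.0 and 16.6 CPM in KO (log2 fold change -0.17, interval -0.63 to 0.29). Med31, which binds Med7, was at 8.49 and 5.22 CPM against 7.16 and 5.30 CPM, with full overlap of the genotypes. Med10, the hook partner of Med19 and Med14, was at 10.5 and 8.12 CPM against 12.4 and 10.7 CPM. Of Med10's exon bases, however, 92.8% overlap the opposite-strand gene Gm26819, which was not found among the genes counted either. Med4 and Med9, also in the middle module, had log2 fold changes of 0.30 and 0.27, with KO above fl/fl in all libraries. Med1, the subunit bound by nuclear receptors and GATA1, was at 45.3 and 46.4 CPM in fl/fl and at 36.2 and 51.5 CPM in KO. Its KO libraries lay on either side of the fl/fl pair (log2 fold change -0.07, interval -0.42 to 0.29). Med26, which docks elongation factors, was at 16.4 and 15.8 CPM against 14.7 and 22.2 CPM.

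Med14, the scaffold and the most abundant Mediator member by CPM, was at 69.5 and 75.0 CPM in fl/fl and at 59.1 and 58.1 CPM in KO. The genotypes did not overlap, yet the log2 fold change of -0.30 (interval -0.55 to -0.06) missed the threshold (adjusted p = 0.0836). The log2 fold change of Med14 was -0.33 without KO library 1 and -0.30 without KO library 2.

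**Figure D3:**
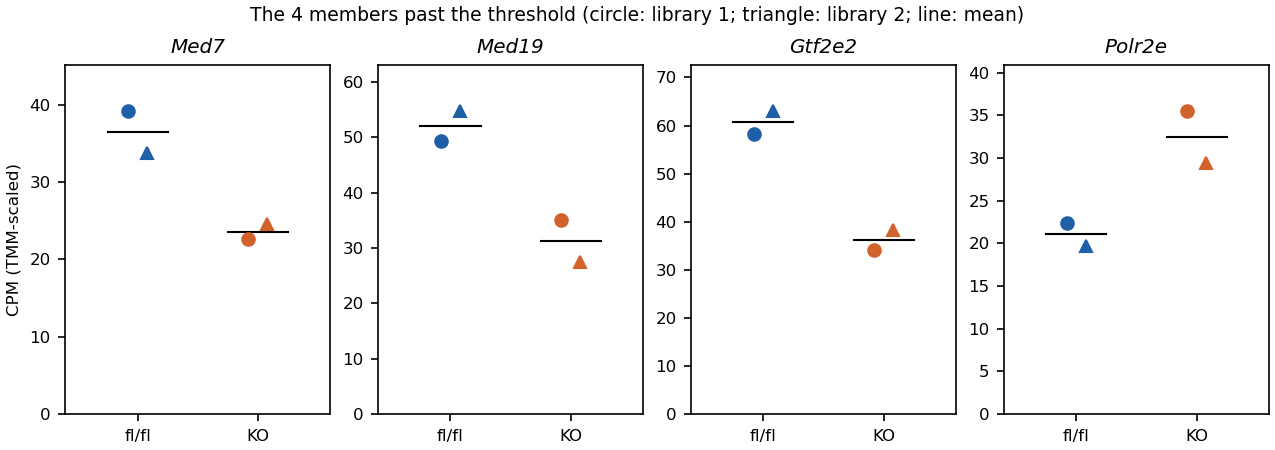
CPM in each library of the 4 members that passed the test, with lines at the genotype means, from 0 on each axis. The 2 KO libraries lie below both fl/fl libraries for Med7, Med19 and Gtf2e2, and above them for Polr2e.

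Among the 5 core subunits that belong to Pol II alone, none was called, and 1 (Polr2b, lower) had an unadjusted p under 0.05 by the same test. Polr2a, which carries the repeated C-terminal tail, was the most abundant member at 269 and 273 CPM in fl/fl and 286 and 306 CPM in KO. Both KO libraries were above, and the log2 fold change was 0.13 (SE 0.06, adjusted p = 0.18). It was called with a transcript length offset at 0.20 (adjusted p = 0.0289), and without KO library 1 its log2 fold change was 0.16. Polr2b, the partner of Polr2a in the active site, was at 86.8 and 79.0 CPM in fl/fl and at 62.9 and 72.8 CPM in KO. Its log2 fold change of -0.29 (interval -0.53 to -0.04, adjusted p = 0.0974) was opposite in sign to that of Polr2a. Without KO library 2, the higher of the pair, the log2 fold change of Polr2b was -0.41. Per length, Polr2a stood at 43.2 CPM per kb in fl/fl and 47.2 in KO, and Polr2b at 20.9 and 19.1 by library in fl/fl, against 15.2 and 17.6 in KO.

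The smaller subunits of this group were not called. Polr2c and Polr2j form the platform on which the polymerase assembles, and Polr2i acts in start site choice and proofreading. Polr2c was at 43.0 and 53.5 CPM against 51.4 and 46.6 CPM. Polr2j was at 16.6 and 15.7 CPM against 20.8 and 12.1 CPM. Polr2i was at 9.77 and 10.2 CPM against 6.46 and 13.5 CPM. All 3 had log2 fold changes between 0.00 and 0.03, with the KO libraries on both sides of the fl/fl values for Polr2j and Polr2i. In the stalk, which binds emerging RNA, Polr2d was at 18.1 and 20.01 CPM against 26.3 and 19.4 CPM. Its partner Polr2g was at 21.2 and 21.6 CPM against 12.9 and 18.7 CPM. The log2 fold change of Polr2g was -0.44 with all libraries and -0.74 without KO library 2, the higher of the pair.

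The 5 subunits that Pol II shares with Pol I and Pol III all lay above 0. Their log2 fold changes ran from 0.39 to 0.63, with a median of 0.52. In each of the 5, both KO libraries were above both fl/fl libraries, as they were for 29.4% of all genes tested. Only Polr2e passed the test. It encodes the jaw subunit that grips downstream DNA, and was at 22.4 and 19.7 CPM in fl/fl and at 35.5 and 29.4 CPM in KO. Means were 21.04 ± 1.87 and 32.5 ± 4.32 CPM (n = 2 per genotype), and the log2 fold change was 0.63 (SE 0.19, adjusted p = 0.0306). Polr2l was at 11.3 and 10.7 CPM against 15.4 and 16.5 CPM (0.53, interval -0.01 to 1.07, adjusted p = 0.169). Polr2k was at 4.11 and 5.51 CPM against 6.04 and 7.80 CPM (0.52, interval -0.33 to 1.38). These are the small zinc-binding subunits, and their values rest on 29 to 112 counts per library. Polr2f, which joins clamp and stalk, was at 10.1 and 10.4 CPM against 14.0 and 12.8 CPM, and Polr2h at 5.10 and 5.08 CPM against 5.62 and 8.83 CPM. The median of the 5 was 0.43 with the GC offset and 0.42 with a transcript length offset, still with all 5 above 0. The call of Polr2e ended with the GC offset (0.43, adjusted p = 0.156) and without fl/fl library 1 (0.71, adjusted p = 0.142), fl/fl library 2 (0.53, adjusted p = 0.357) or KO library 1 (0.47, adjusted p = 0.056).

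Polr2e is also a neighbour of the targeted gene. In the GRCm38 annotation it lies 127 kb from Med16 on chromosome 10. Of the 32 tested genes within 250 kb of Med16, Polr2e among them, 14 were called higher and 1 lower. That is 43.8% higher, against 8.5% of all genes tested and 11.4% of the 607 tested on chromosome 10. The window was chosen after values had been seen: within 100 kb 8 of 17 were higher, and within 1000 kb 23 of 67. R3hdm4, the nearest tested gene, rose from 104 to 179 CPM, and Cnn2 and Arhgap45, which lie between Med16 and Polr2e, rose by 0.57 and 0.50 on the log2 scale. The set includes the neutrophil granule genes Elane and Prtn3, and 12 of 13 neutrophil markers were called higher in KO. The median exon GC content of the 32 genes was 58.9%, against 49.6% over all genes tested, and with the GC offset 7 of the 32 were higher, Polr2e not among them, beside 5.59% of all genes. Without fl/fl library 1 it was 6 (3.64% of all genes), and without fl/fl library 2 it was 7 (3.26% of all genes). The part of position, GC content or neutrophil RNA in the call of Polr2e was not tested.

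**Figure D4:**
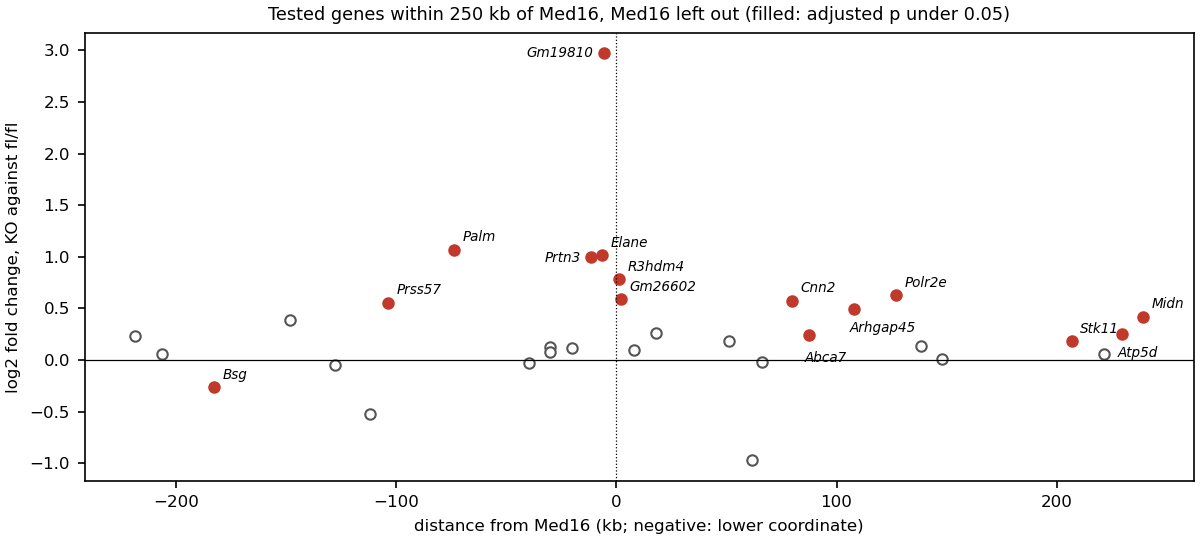
Log2 fold change of the 32 tested genes within 250 kb of Med16 against their distance from it, Med16 left out, with filled points for genes past the threshold. Polr2e, at 127 kb, is one of 14 genes called higher, and Bsg is the one called lower.

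Among the general factors, 1 of the 2 TFIIE genes was called lower, beside 9.89% of all genes tested. Gtf2e2, the beta subunit, was at 58.3 and 63.1 CPM in fl/fl and at 34.1 and 38.2 CPM in KO. Means were 60.7 ± 3.36 and 36.2 ± 2.92 CPM (n = 2 per genotype), and the log2 fold change of -0.75 (SE 0.14, adjusted p = 0.00118) was the lowest among the members. It was called lower with the GC offset (-0.62, adjusted p = 0.00663). The same held without each library in turn, though those fits leave a single library in a genotype. Of the alternatives run, only the assumed spread ended its call (adjusted p = 0.146). Gtf2e1, the alpha subunit that pairs with it, was at 11.6 and 6.82 CPM in fl/fl and at 5.76 and 6.18 CPM in KO. The fl/fl libraries differed 1.70-fold from each other, and the log2 fold change of -0.63 (interval -1.41 to 0.15, adjusted p = 0.273) was not called. Per length the subunits were unequal in both genotypes: Gtf2e2 stood at 37.1 and 22.1 CPM per kb and Gtf2e1 at 2.99 and 1.94 in fl/fl and KO.

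The factors that place the polymerase were not called. TBP, the TATA-binding protein encoded by Tbp, was at 29.3 and 27.7 CPM in fl/fl and 28.2 and 25.01 CPM in KO (log2 fold change -0.10, interval -0.48 to 0.28). Gtf2b, which encodes TFIIB, was at 32.7 and 30.5 CPM against 28.8 and 40.6 CPM, with KO on both sides. The TFIIA genes were below fl/fl in both KO libraries. Gtf2a1 was at 39.9 and 37.0 CPM against 32.2 and 27.4 CPM (-0.37, adjusted p = 0.145). Gtf2a2, at 55.4 CPM per kb the highest member per length in fl/fl, and at 46.7 just under Polr2a in KO, was at 48.0 and 50.9 CPM against 44.9 and 38.4 CPM (-0.25, adjusted p = 0.271). Without KO library 1, the higher of the pair for both TFIIA genes, the log2 fold changes were -0.50 and -0.38.

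None of the TFIIF and TFIIH members was called or had an unadjusted p under 0.05 by the same test. Gtf2f1, the most abundant general factor gene by CPM, was at 70.5 and 81.2 CPM in fl/fl and 65.9 and 81.5 CPM in KO, with complete overlap (log2 fold change -0.04, interval -0.31 to 0.22). Gtf2f2, the other TFIIF subunit, was at 12.3 and 16.4 CPM against 17.4 and 18.7 CPM, with both KO libraries above (log2 fold change 0.33, interval -0.18 to 0.84). Gtf2h1, a core TFIIH subunit, had a log2 fold change of -0.13. Ercc3, the TFIIH translocase that opens the promoter, was at 25.9 and 23.2 CPM against 28.9 and 17.9 CPM, so that its KO libraries enclosed the fl/fl range (log2 fold change -0.07, interval -0.55 to 0.42).

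**Figure D5:**
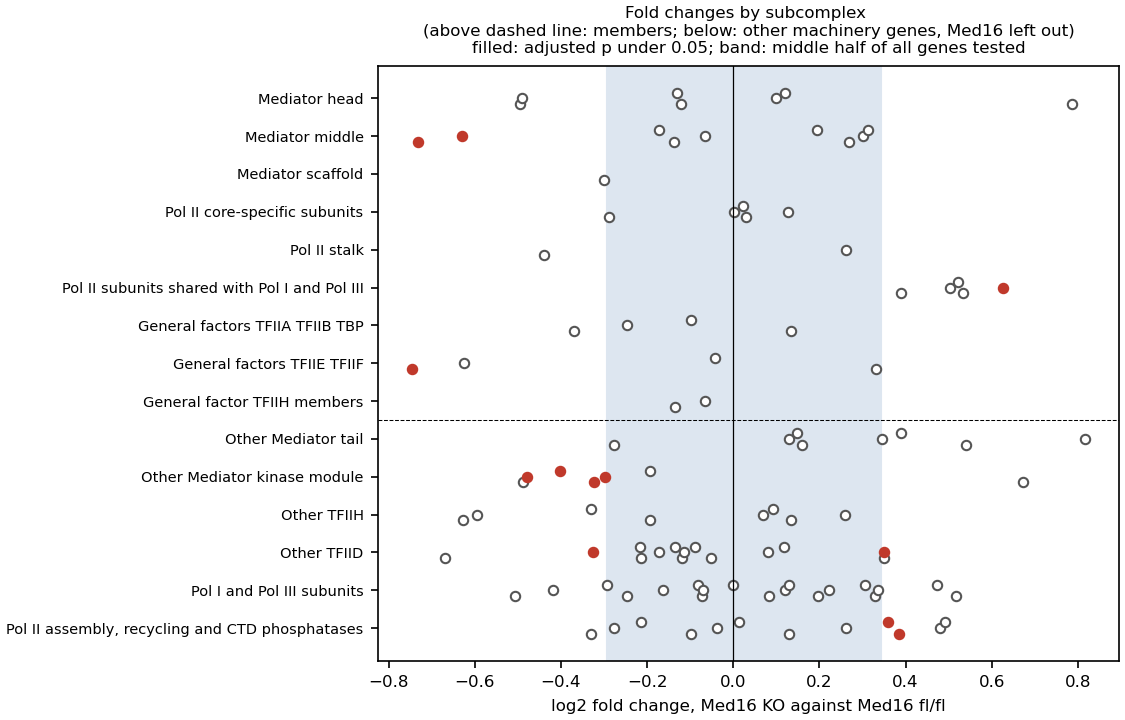
Log2 fold changes of the members by subcomplex (above the dashed line) and of 68 other machinery genes (below it, Med16 left out), filled where adjusted p was under 0.05. The shaded band spans the middle of all genes tested, from -0.29 to 0.34, and all 5 shared Pol II subunits lie above it.

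The rest of the machinery, from lists given beside the members for comparison, had 3 genes called higher and 6 lower of 69 tested, Med16 among the latter. That is 13% called, against 18.4% of all genes tested. The kinase module docks on Mediator and blocks its contact with Pol II. Its 7 genes had a median level of 76.4 CPM and a median SE of 0.115, against 24.0 CPM and 0.213 for the members. Of these 7 genes 4 were called lower and none higher, beside 9.89% lower and 8.5% higher of all genes tested. Med13 fell by 0.48, the kinase gene Cdk8 by 0.40, Med13l by 0.32 and Med12 by 0.30 on the log2 scale. The count was 1 when either fl/fl library was left out, 6 without KO library 1 and 4 without KO library 2, and it was 3 with the GC offset, 2 with the length offset and 0 with the assumed spread. Beyond Med16, none of the 8 other tail genes was called. At an unadjusted p under 0.05 by the same test 3 of them were higher, beside 1947 of all 13052 genes. These were Med24, Med28 and Med29, with log2 fold changes of 0.35, 0.39 and 0.82. With library size only, and with the length offset, 1 tail gene was called higher. Such calls also appeared when either KO library was left out, which leaves a single library in KO. Of the 14 TFIID genes tested, Taf10 rose by 0.35 and the scaffold gene Taf1 fell by 0.33 on the log2 scale. Neither was called with the assumed spread. The unknown strand setting bears on Taf10, as 45.9% of its exon bases overlap the opposite-strand gene Ilk. No TFIID gene was lower with library size only, with the length offset or without either fl/fl library, and 3 were when either KO library was left out. None of the 8 other TFIIH genes was called, and at an unadjusted p under 0.05 by the same test there was 1, lower. With the replicate block, and with the length offset, 1 was called lower. Lower calls also appeared without KO library 1, which leaves a single library in KO. Among 12 genes of Pol II assembly and tail phosphatases, Ctdsp1 and Ctdsp2, which encode small phosphatases of the C-terminal tail, rose by 0.36 and 0.38. Both calls ended with the GC offset, with the assumed spread and without either fl/fl library, and 4 genes of the list were higher without KO library 2. None of the 19 subunits specific to Pol I or Pol III was called by the same test (1 higher and 1 lower at an unadjusted p under 0.05), with a median log2 fold change of 0.08, beside 0.52 for the 5 subunits they share with Pol II. Without KO library 1 the count was 1 higher and 2 lower, and without KO library 2 it was 1 higher. No test of the difference between those groups was made.

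Members spread further within KO than within fl/fl, as did all genes tested. The larger value exceeded the smaller by a median of 1.17-fold over the members within KO and 1.08-fold within fl/fl, and by 1.19-fold and 1.12-fold over all genes with counts in every library. The KO gap was wider for 27 of 39 members, or 69.2%, against 62.7% of all genes. Within KO, 7 members (17.9%, against 23.4% of all genes) differed over 1.5-fold: Med6 (2.28-fold), Polr2i (2.095-fold), Polr2j (1.72-fold), Med17 (1.62-fold), Ercc3 (1.61-fold), Polr2h (1.57-fold) and Med26 (1.51-fold). Within fl/fl 3 members did so (7.69%, against 12.7% of all genes), namely Med18 (1.81-fold), Gtf2e1 (1.70-fold) and Med31 (1.63-fold). The direction was mixed within KO: library 1 was the higher one for Polr2j, Med17 and Ercc3, and the lower one for Med6, Polr2i, Polr2h and Med26.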

How the data were processed

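The deposited values are whole-number read counts per gene, in 1 table for each library. The submitters' processing notes list HISAT2 2.1.0 and HTSeq 0.12.4, with FastQC 0.11.7, HOMER and DESeq2, and build GRCm39. The sources used here do not give the annotation release or the strand setting. The 5 rows that name no gene stayed out of library sizes and tests. Reads without a feature made up 36.0% and 36.7% of all in fl/fl and 35.8% in both KO libraries, and reads not aligned 1.05% and 0.826% in fl/fl against 2.69% and 3.27% in KO.

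The fit used edgeR 4.0.16 (R 4.3.3), with filterByExpr by genotype, TMM scaling and a two-sided quasi-likelihood test on a model of genotype alone. Benjamini-Hochberg adjustment covered the 13052 genes that passed the filter. SEs and 95% intervals of log2 fold changes came from the fitted weights and the moderated dispersion. The members and lists were chosen with earlier results of these data known. Genes named with full values are the called members (at most 8 per complex), each complex's most abundant member by CPM and by CPM per kb, the 2 largest uncalled changes per complex, and up to 3 called genes per list of other machinery, with the other members given by value or range. Alternatives were DESeq2 1.42.0, other scalings, no filter, a replicate block, offsets, an assumed spread and leaving out each library. The procedure was tested on simulated data. GC content, lengths and positions came from GENCODE M21 (GRCm38), matched for 98.4% of genes tested and for all 39 members, and promoters from RefSeq (GRCm38.p6). Neither matches the build of the counts. Polr1g is listed in the tables under its older symbol Cd3eap.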

Additional observations from a re-analysis of the deposited data

How the results depend on the processing

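With DESeq2, DESeq2-style size factors, library size only, no filter and the replicate block, the called members were Gtf2e2, Med19, Med7 and Polr2e in each fit, as with the main settings; no called member changed sign under any alternative run. Members called numbered 2 with the GC offset and with the replicate block with GC offset (1 Mediator member lower, 0 Pol II higher), and 0 with the assumed coefficient of variation of 0.2. With the transcript length offset 2 were higher, both of Pol II. Leaving out a library gave 1 to 9 members called (0 to 1 higher, 1 to 8 lower), with 0 to 5 Mediator, 0 to 2 Pol II and 1 to 3 general factor members lower, and 0 to 1 Pol II member higher. Over all genes, the counts without a library ran from 1158 to 3998, 454 to 1839 higher and 704 to 2172 lower. In such fits the lone library is assumed to vary like the other genotype's pair. With the assumed spread 620 genes were called, 331 higher and 289 lower, and with the GC offset 729 were higher. Of the called genes 46.2% were higher, and 56.4% with library size only. Libraries with the same replicate number in their titles did not deviate together. The correlation of their deviations from their genotype mean was -0.01 across genes. That value cannot show whether they were paired in preparation. With the replicate block the member count was 4 as before, while 21.2% of all genes were called, against 18.4% without it. At these depths 1 count equals 0.139 to 0.148 CPM, so members near 5 CPM rest on few counts, and only large changes of those could be called.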

Other observations

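Genes called higher lay on both sides of Med16. On the side away from Polr2e, Palm, 73.8 kb away, had a mean of 42.7 CPM in fl/fl and 89.4 CPM in KO, a log2 fold change of 1.07 (SE 0.12, adjusted p = 1.3e-05 by edgeR). The granule genes Elane and Prtn3, 6.49 and 11.5 kb away, rose by 1.01 and 0.99 on the log2 scale. On the side of Polr2e, R3hdm4, 1.13 kb away, rose by 0.78, and Midn and Stk11, 239 and 207 kb away, by 0.42 and 0.18. Wdr18, Tmem259, Gpx4 and Sbno2, which lie among them, had log2 fold changes of 0.18, -0.02, 0.13 and 0.01 and were not called. Bsg, 183 kb away on the side of Palm, fell by 0.27 on the log2 scale. These genes were chosen after their values were seen.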
